A study of Mus musculus with 4 samples.

Results

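The 10 genes described here encode proteins that are secreted into the extracellular matrix or act on it: Sparc, Sfrp4, Mmp14, Fn1, Bgn, Dcn, Lum, Postn, Timp3 and Igfbp5. They were taken by name, as the probe sets whose platform annotation gives exactly 1 gene symbol among these names. All 10 were found, with 1 probe set each, among 19938 genes with such a probe set and 35556 probe sets in all. The names were chosen by their values on these arrays, in particular the differences of Sfrp4, Sparc and Mmp14 between the groups, so the differences of the 10 genes between the groups are a description and carry no test.

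RNA came from Flt3(-) LSK cells of mouse bone marrow, a sorted fraction that lacks lineage markers and surface Flt3, carries Sca-1 and c-Kit, and is rich in blood-forming stem cells. It was measured on 4 GeneChip Mouse Gene 1.0 ST arrays, 2 per group, which carry probes along the whole transcript. Control mice were Mx1Cre-GABPa(FL/+), with a floxed and an intact Gabpa allele, and the other mice were Mx1Cre-GABPa(FL/-), with a floxed and a null allele. The Gabpa product is the subunit through which GABP, an ETS-family transcription factor, binds DNA. All mice, controls included, carried Cre under the interferon-inducible Mx1 promoter and received pIpC, a double-stranded RNA mimic that turns this promoter on. They were sampled 4 days after the final dose, at 6 to 8 weeks of age, from a stock backcrossed to C57/BL6 for 4 generations. The control mice can therefore also lose a Gabpa allele, and the Mx1 promoter is not confined to blood cells. Whether an array held RNA of a single mouse or of a pool is not given, so the spread between arrays may be technical.

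Matrix proteins of the marrow are made chiefly by mesenchymal stromal cells, osteoblasts, fat cells and vessel walls. Sparc (osteonectin) binds collagen and calcium, fibronectin links collagen to integrin receptors, and biglycan, decorin and lumican are small leucine-rich proteoglycans that coat collagen fibrils. Periostin is a matrix protein of bone and connective tissue. Mmp14 encodes a metalloproteinase anchored in the cell membrane that cuts collagen and activates Mmp2, and Timp3 a matrix-bound inhibitor of such enzymes. Sfrp4 encodes a secreted Wnt antagonist, and Igfbp5 a binding protein for insulin-like growth factors. Blood cells use some of these genes too: platelets hold SPARC, and macrophages can make fibronectin.

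The RefSeq promoter table held 6 of the 10 genes. The windows shown are the 250 bases before the RefSeq start, read 5′ to 3′ on the gene's own strand in build GRCm38.p6. They are given for Sparc, Mmp14, Bgn and Igfbp5, the genes with a window that had the largest positive differences, and for Timp3, whose groups overlapped. The positions are chr11:55420081-55420330 on the minus strand for Sparc, chr14:54431348-54431597 on the plus strand for Mmp14, chrX:73483351-73483600 on the plus strand for Bgn, chr1:72874866-72875115 on the minus strand for Igfbp5 and chr10:86300162-86300411 on the plus strand for Timp3. Capitals mark a match on either strand to GGAAG (the core bound by ETS factors), CCGGAAG (a GABP-type ETS site, which contains that core), GGGCGG (the GC box) or TATAAA (the TATA box), and adjacent matches run together.
Sparc: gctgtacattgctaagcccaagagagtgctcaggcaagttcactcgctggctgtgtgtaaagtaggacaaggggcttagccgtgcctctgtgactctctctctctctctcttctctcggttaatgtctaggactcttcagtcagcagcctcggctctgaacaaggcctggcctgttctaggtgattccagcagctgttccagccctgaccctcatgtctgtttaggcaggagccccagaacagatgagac
Mmp14: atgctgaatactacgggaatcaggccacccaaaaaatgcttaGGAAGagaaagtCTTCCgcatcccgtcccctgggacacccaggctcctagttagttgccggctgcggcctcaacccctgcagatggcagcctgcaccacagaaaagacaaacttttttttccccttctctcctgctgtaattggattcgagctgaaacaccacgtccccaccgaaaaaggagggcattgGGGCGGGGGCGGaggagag
Bgn: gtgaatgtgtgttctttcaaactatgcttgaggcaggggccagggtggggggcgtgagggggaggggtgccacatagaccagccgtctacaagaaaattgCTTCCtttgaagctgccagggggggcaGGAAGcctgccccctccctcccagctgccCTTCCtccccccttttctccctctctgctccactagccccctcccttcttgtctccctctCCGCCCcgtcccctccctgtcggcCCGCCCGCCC
Igfbp5: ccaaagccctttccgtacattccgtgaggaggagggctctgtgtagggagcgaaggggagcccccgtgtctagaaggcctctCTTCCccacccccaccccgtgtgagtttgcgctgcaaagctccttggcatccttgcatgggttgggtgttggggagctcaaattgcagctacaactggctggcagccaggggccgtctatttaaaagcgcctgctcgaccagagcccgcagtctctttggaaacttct
Timp3: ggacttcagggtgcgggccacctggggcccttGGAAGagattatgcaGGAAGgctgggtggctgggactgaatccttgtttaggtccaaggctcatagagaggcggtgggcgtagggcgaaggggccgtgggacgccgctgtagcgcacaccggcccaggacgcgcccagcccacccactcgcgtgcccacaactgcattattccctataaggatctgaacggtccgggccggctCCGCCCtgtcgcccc

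None of these 4 motifs matched in the Sparc window. The Mmp14 window held 2 ETS cores, with first bases at -208 and -196 from the start, and 2 neighbouring GC boxes at -19 and -13. Bgn had 3 ETS cores and 3 GC boxes in a window that was 64.4% G and C, against a median of 52.4% over all windows. Timp3 had 2 ETS cores and 1 GC box, and Igfbp5 had 1 ETS core. Postn had 2 windows for separate starts, of which 1 held 2 ETS cores and the other a TATA box at -26. Over the 7 windows of these 6 genes, 5 held an ETS core, against 64.1% of all 32851 windows of that length, and 3 held a GC box, against 32.7%. A TATA box stood in 1 window, against 12.4% of all. The GABP-type site matched in 0 of 7 windows, against 6.91% of all, which says only that these letters do not occur there.

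The Gabpa probe set, the check of the targeted gene, read 8.43 and 7.28 in the controls and 6.43 and 7.85 on the others, so the groups overlapped and the arrays are called by their labels. Its probes may lie outside the deleted part, in which case it checks nothing. Kit, which the gate selects for as protein, read 10.21 in both controls and 7.70 and 8.50 in the samples labelled deficient. Cd34, a surface mucin of blood progenitors, read 11.30 and 11.31 against 8.00 and 7.53. Flt3, whose surface protein the gate excludes, read 8.43 and 9.27 in the controls against 5.68 and 5.95, so its RNA read higher in the controls. Sca-1 (Ly6a) had no probe set with a single symbol. The p-values for single genes below come from limma with Benjamini-Hochberg adjustment over all 35556 probe sets, of which 0 passed an adjusted p of 0.05 in either direction, while 2360 were higher and 1865 lower at an unadjusted p under 0.05. Without control replicate 1 the higher ones numbered 714, and without control replicate 2 they numbered 1053. The median log2 difference over all probe sets was 0.15, and cyclic loess, which evens out differences between arrays along the range of levels, moved it to -0.0045, so small positive differences depend on the scaling.

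A group of 3 genes stood apart in size. Sfrp4, Sparc and Mmp14 were higher on both arrays labelled deficient than on either control array, by 4.00- to 17.0-fold. Biglycan and Igfbp5 were higher by smaller amounts. Decorin, lumican, periostin and Timp3 differed by 0.040 to 0.31 on the log2 scale, and fibronectin was lower. By mean level, lumican stood at percentile 2.58 of all genes, periostin at 6.71 and decorin at 27.4. At such low levels a small difference does not show that a gene was unchanged. Values are RMA log2 expression values as deposited, and a difference is the mean of the arrays labelled deficient minus the control mean, and its standard error (SE) is that of the limma fit.

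Sfrp4 (probe set 10403834) read 4.82 and 5.02 in the controls and 9.001 and 9.02 in the samples labelled deficient. Both deficient values lay 3.98 or more above the higher control, and they lay closer to each other than the control values did. The control values lay little above the lower quartiles of all probe sets on those arrays, 4.68 and 4.73, so the control level is a low one. Group means were 4.92 ± 0.14 (SD, n = 2) and 9.01 ± 0.013, which differ by 4.09 on the log2 scale (SE 0.15), or 17.0-fold. Only 1 of 19938 genes had a larger positive difference. Sparc (10386058) read 6.19 and 6.56 in the controls and 10.38 and 9.98 in the samples labelled deficient. The gap between the lower deficient and the higher control value was 3.42, several times the gap of 0.41 between the deficient arrays. Its means were 6.38 ± 0.26 and 10.18 ± 0.29, a difference of 3.80 (SE 0.24), or 14.0-fold, with 2 genes above it, 1 of them Sfrp4.

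Mmp14 (10415052), the membrane-anchored collagenase, read 5.50 and 5.63 in the controls and 7.64 and 7.49 in the samples labelled deficient. The arrays of each group lay within 0.16 of each other. Group means were 5.56 ± 0.092 (SD, n = 2) and 7.56 ± 0.11, a difference of 2.001 (SE 0.15), or 4.00-fold, and 65 genes had a larger one. Its inhibitor gene Timp3 (10365482) read 6.25 and 6.49 against 6.51 and 6.31, with control and deficient values interleaved. The Timp3 difference was 0.040 (SE 0.18), and it turned to -0.12 under cyclic loess and to -0.041 with array medians subtracted. Without control replicate 1 it was -0.082, and without deficient replicate 1 -0.059. In the RefSeq annotation Timp3 lies inside the synapsin gene Syn3, whose own probe set differed by 0.18.

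Among the small leucine-rich proteoglycans of the list, biglycan had the largest difference. At the low levels of decorin and lumican, whether these genes moved together cannot be read. Biglycan (Bgn, 10600169) read 7.08 and 7.56 in the controls and 8.90 and 7.94 in the samples labelled deficient. The groups were separated by 0.38, less than the 0.95 between the deficient arrays, of which replicate 1 was the higher. The difference was 1.10 (SE 0.41), or 2.14-fold, and it ran from 0.62 without deficient replicate 1 to 1.58 without deficient replicate 2. Decorin (Dcn, 10365974) read 5.19 and 5.33 against 5.41 and 5.44, a difference of 0.16 (SE 0.15) that was close to the median of all probe sets and turned to -0.060 under cyclic loess. Lumican (Lum, 10365983) read 3.61 and 3.21 against 3.42 and 4.03, with overlapping groups, and its difference of 0.31 (SE 0.30) was 0.0047 without deficient replicate 2 and 0.62 without deficient replicate 1. Without control replicate 2 the lumican difference was 0.11 and without control replicate 1 0.52. Dcn and Lum are neighbours on chromosome 10, followed there by keratocan (Kera) and epiphycan (Epyc), proteoglycans of the same family that differed by 0.067 and 0.17.

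Among the adhesive matrix proteins, fibronectin went the other way. Fn1 (10355403) read 7.41 and 6.52 in the controls and 5.84 and 6.18 in the samples labelled deficient. Both deficient values were below both controls, by 0.33 at the nearest pair, while the controls themselves were 0.89 apart. Group means were 6.96 ± 0.63 (SD, n = 2) and 6.01 ± 0.25, a difference of -0.95 (SE 0.37), or 0.518 times the control level. It was -0.50 without control replicate 1 and -1.40 without control replicate 2. Periostin (Postn, 10492021) read 3.90 and 4.11 against 4.20 and 4.14, a difference of 0.17 (SE 0.16) that shrank to 0.0054 under cyclic loess and was 0.059 without control replicate 1 and 0.28 without control replicate 2. Igfbp5 (10355500) read 5.41 and 5.36 in the controls and 6.22 and 5.90 in the samples labelled deficient, a difference of 0.68 (SE 0.18), or 1.60-fold. Its groups were 0.49 apart, more than the 0.32 between the deficient arrays, and the difference was 0.46 under cyclic loess.

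**Figure D1:**
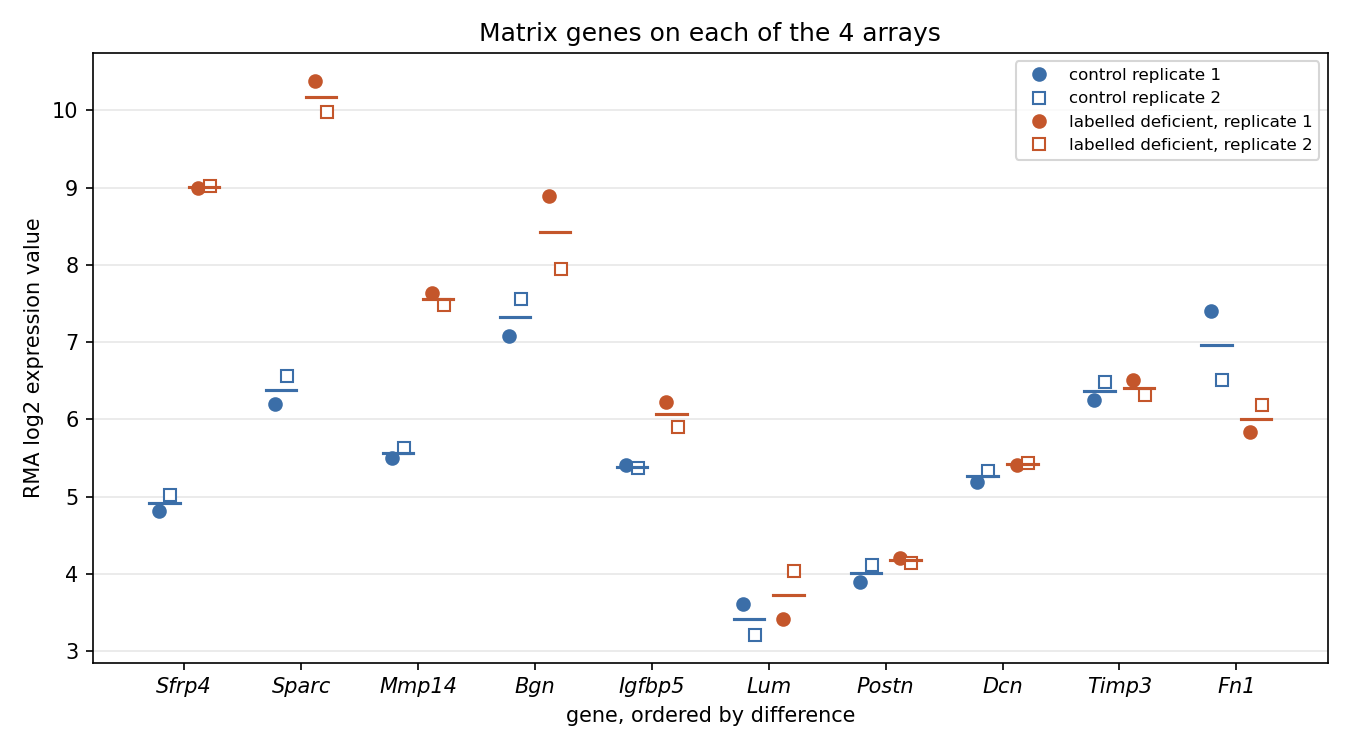
RMA log2 expression values (y axis) of the 10 genes (x axis, ordered by difference) on each array, with filled circles for replicate 1, open squares for replicate 2 and bars for group means. Sfrp4, Sparc and Mmp14 have both deficient points far above both control points, Lum and Timp3 overlap, and Fn1 is the gene with lower deficient points.

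In counts, 9 of the 10 genes had a positive difference, and the groups did not overlap for 8, against 52.9% of all probe sets. Of these 8 genes, 7 were higher and 1 lower on the arrays labelled deficient. Over all probe sets, 66.3% had a positive difference, 38.9% had groups that did not overlap with higher deficient values and 14.0% with lower ones. Nothing is read from the count, since the genes were chosen with this contrast known. The median difference of the 10 genes was 0.49, against 0.16 over all genes, and it stands between the 5 genes above 0.6 and the 5 below 0.4. Under cyclic loess 7 genes remained positive, since decorin and Timp3 turned, and the median was 0.32. Among the 10 genes, 6 (Sparc, Sfrp4, Mmp14, Fn1, Bgn and Timp3) were in the brighter 50% of probe sets, and their median difference was 1.55. Brightness was the mean over all 4 arrays, with the cut at 5.955. The control means of Sfrp4 (4.92) and Mmp14 (5.56) were below this cut, so both passed only through their values on the arrays labelled deficient. The median of 1.55 is therefore partly set by the filter, and nothing is read from it. The other 4, Dcn, Lum, Postn and Igfbp5, were among the dimmer probe sets, and no detection calls were used here.

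**Figure D2:**
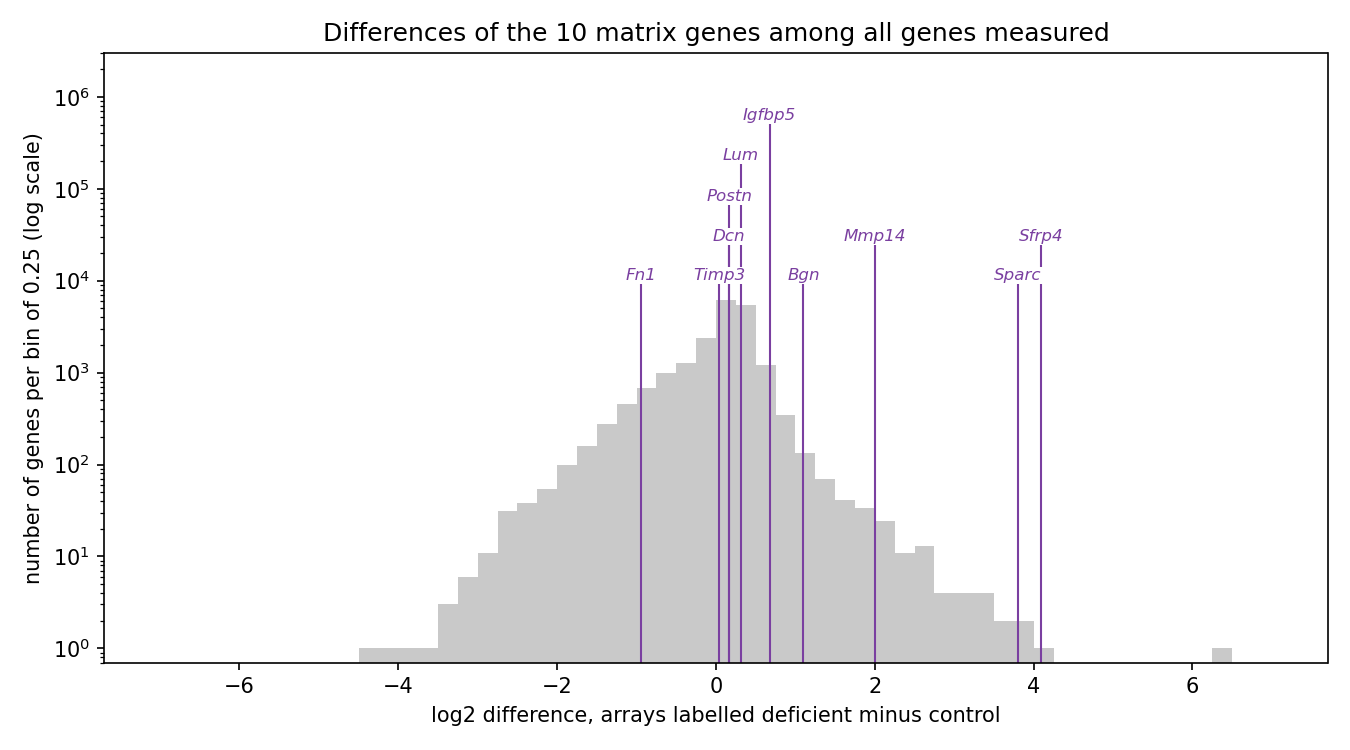
Number of genes (y axis, log scale) by log2 difference, arrays labelled deficient minus control (x axis, bins of 0.25), for 19938 genes, with lines at the 10 matrix genes. Sfrp4 at 4.09 and Sparc at 3.80 lie at the right edge, Mmp14 at 2.001 in the tail, and Timp3, Dcn, Postn and Lum within the main body.

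The wider matrix was read from 9 lists of related genes, chosen with earlier results of these arrays known. Of 147 listed genes, 140 had a probe set with a single symbol. In the limma fit 0 passed the adjusted threshold, and 18 were higher and 4 lower at an unadjusted p under 0.05, or 12.9% and 2.86%, where 6.992% and 6.36% of all genes and 6.64% and 5.25% of all probe sets were. The median difference over the 140 genes was 0.24, against 0.16 over all genes, and under cyclic loess it was 0.052, with 6 higher and 7 lower. The count of 18 fell to 4 and 3 without control replicates 1 and 2 and to 6 without deficient replicate 1, and the count of 4 fell to 1 and 2 without control replicates 1 and 2. Among the relatives of Sfrp4, Sparc and Mmp14 the largest difference was 1.19, for Adamts5.

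Beside Sparc, its 7 relatives of the SPARC family differed by -0.038 to 0.40, and 0 passed even the unadjusted threshold. The closest paralog Sparcl1 (hevin) read 4.998 and 5.25 in the controls and 5.25 and 5.27 in the samples labelled deficient. Sparcl1 differed by 0.14 in the deposited values and by -0.086 under cyclic loess. Spock2, a testican proteoglycan, had the largest difference at 0.40 (SE 0.15), or 0.20 under cyclic loess, followed by Spock1 at 0.33, which ran from 0.099 to 0.56 with 1 array left out (without deficient replicates 2 and 1), and Smoc1 at 0.29. Beside Sfrp4, all 12 other secreted Wnt antagonists had a positive difference, from 0.095 to 0.58, but only 8 did under cyclic loess. At an unadjusted p under 0.05, 3 of the 12 were higher, namely Sost (sclerostin of osteocytes, 0.58), Wif1 (0.51) and Sfrp2 (0.45). Sfrp1 differed by 0.33, or 0.11 under cyclic loess and 0.17 without deficient replicate 2. Frzb differed by 0.14, but by -0.058 under cyclic loess and by -0.14 without deficient replicate 2, and it was 0.42 without deficient replicate 1.

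Beside Mmp14, 22 other metalloproteinases had a median difference of 0.29, with 3 higher and 0 lower at an unadjusted p under 0.05. The 3 were the gelatinase Mmp9 (0.62), the macrophage elastase Mmp12 (0.43) and Mmp28 (0.42). Adamts5, an aggrecan-cutting protease, read 4.76 and 4.84 against 6.71 and 5.26, a difference of 1.19 (SE 0.54) that did not pass and was 0.46 without deficient replicate 1 and 1.91 without deficient replicate 2. The neutrophil collagenase Mmp8 did not pass either, with a difference of 0.76 that was 0.19 without deficient replicate 2 and 1.33 without deficient replicate 1. Mmp2, the gelatinase that Mmp14 activates, read 6.81 and 7.28 against 6.62 and 6.87, a difference of -0.30 (SE 0.23) with overlapping groups, which was -0.069 without control replicate 2, -0.18 without deficient replicate 1 and -0.53 without control replicate 1. Of 4 other inhibitors, Timp1 differed by 0.20 (-0.021 under cyclic loess and -0.033 without control replicate 1), Timp4 by 0.39 and the membrane-bound inhibitor Reck by -0.25. Timp2, which takes part in the activation of Mmp2 by Mmp14, differed by -0.50, by 0.23 without deficient replicate 2 and by -1.24 without deficient replicate 1.

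Among 10 other small leucine-rich proteoglycans the median difference was 0.20, and 1 was higher at an unadjusted p under 0.05. That gene, Prelp, a proteoglycan of basement membrane and cartilage, read 5.67 and 5.76 in the controls and 8.42 and 6.77 in the samples labelled deficient, a difference of 1.88 (SE 0.62), which was 2.71 without deficient replicate 2 and 1.04995 without deficient replicate 1. Like biglycan it was highest on deficient replicate 1. Ogn and Podn differed by 0.37 each, Fmod by 0.18 and Aspn by 0.15, the last pair turning to -0.039 and -0.011 under cyclic loess. Of 33 other matrix glycoproteins, 29 had a positive difference, and 19 under cyclic loess. At an unadjusted p under 0.05, 2 were higher, Ecm1 at 0.77 and the basement membrane linker nidogen (Nid1) at 0.55. Efemp1 differed by 0.48. Tgfbi, the paralog of periostin, differed by 0.45 (SE 0.44), with 8.16 and 7.02 in the controls and 7.92 and 8.16 on the others, and by -0.12 without control replicate 2.

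Beside Igfbp5, 11 other genes of the insulin-like growth factor axis had a median difference of 0.42, with 4 higher and 1 lower at an unadjusted p under 0.05. Igfbp7, a binding protein of vessel walls, read 7.14 and 6.54 in the controls and 9.68 and 8.21 in the samples labelled deficient, a difference of 2.10 (SE 0.59), which was 1.36 without deficient replicate 1. Igfbp2, the neighbour of Igfbp5 on chromosome 1, differed by 0.73 (SE 0.17), and Igf1 and Igf2, the ligands, by 0.57 and 0.45, which makes up the 4 that were higher. Igfbp3 differed by 0.42, or 0.18 without deficient replicate 1 and 0.65 without deficient replicate 2. The receptor gene Igf1r was the 1 lower gene at -0.87 (SE 0.27), or -0.55 without control replicate 1. Of these 11 genes 9 had a positive difference, also under cyclic loess.

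Receptors and processing enzymes spread to both sides of 0. Of 23 matrix receptors, 5 were higher and 1 lower at an unadjusted p under 0.05. Itga6, the laminin receptor subunit of stem cells, read 8.62 and 7.83 in the controls and 5.74 and 5.69 in the samples labelled deficient, a difference of -2.51 (SE 0.32). Sdc1, the heparan sulfate proteoglycan syndecan 1, differed by 1.43 (SE 0.15), and the others higher were Sdc3 (0.75), Itga10 (0.61), Itgb8 (0.49) and Itga8 (0.48). The fibronectin receptor subunits Itga4, Itgb1 and Itga5 differed by -1.12, -1.09 and 0.18, all with overlapping groups. These values rest on single arrays: Itgb1 was -0.18 without deficient replicate 1 and -1.997 without deficient replicate 2, and Itga5 was -0.22 and 0.57. Itga4 was -0.43 without control replicate 1, -1.81 without control replicate 2, -0.49 without deficient replicate 1 and -1.74 without deficient replicate 2. Of 18 enzymes and chaperones that process collagen and other matrix proteins, 0 were higher and 2 lower at an unadjusted p under 0.05, namely Crtap, a subunit of the prolyl 3-hydroxylase complex, at -1.46 and the prolyl 4-hydroxylase P4ha1 at -0.84. Plod2, a lysyl hydroxylase, differed by -0.50, or -0.087 without deficient replicate 1 and -0.29 without control replicate 1.

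**Figure D3:**
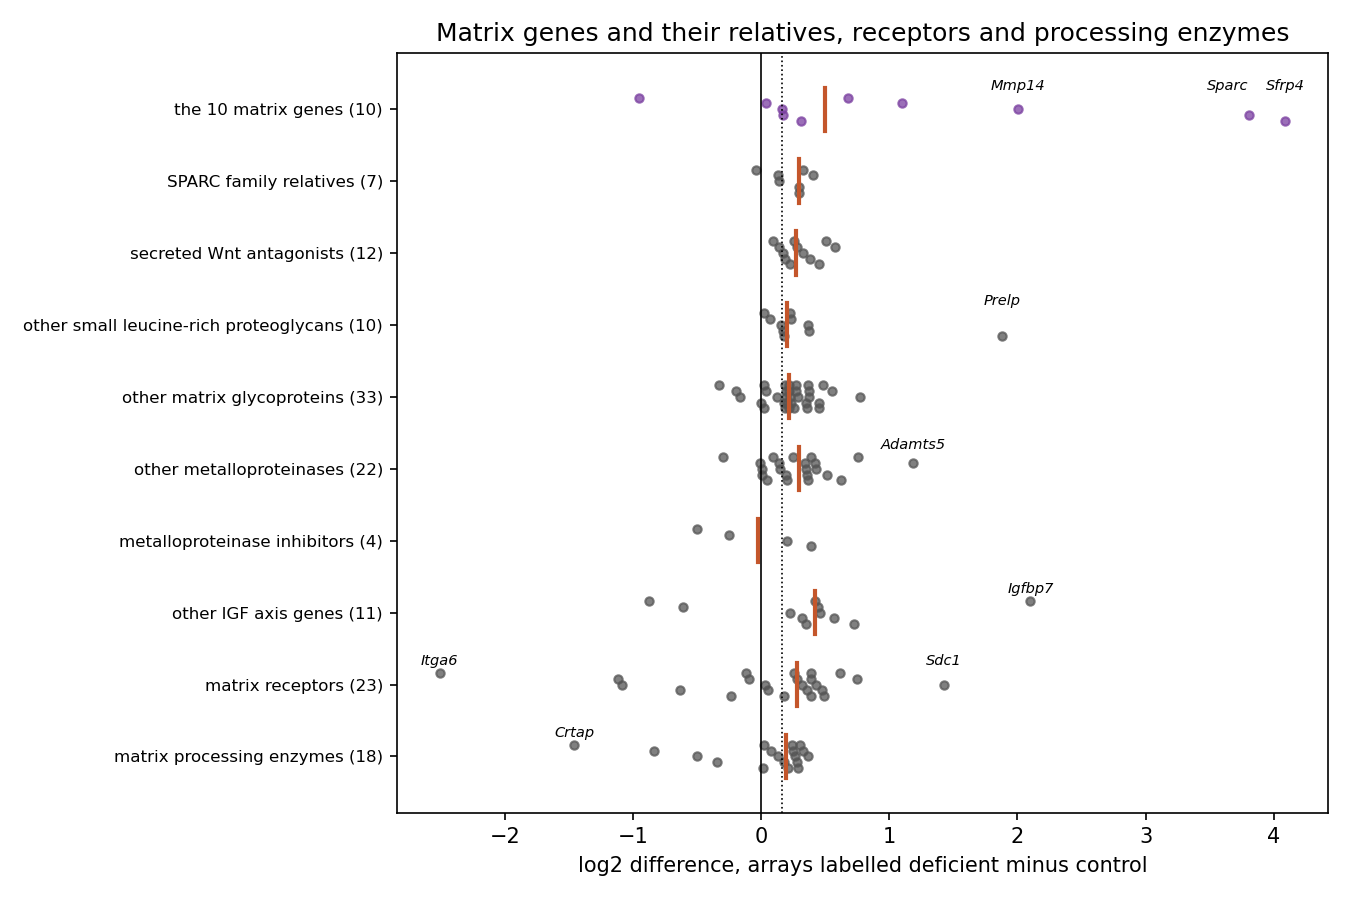
Log2 difference, arrays labelled deficient minus control (x axis), of each measured gene in the 10-gene list and in 9 related lists (y axis, with the number of genes), where orange bars are list medians and the dotted line is the median of all genes, 0.16. Sfrp4, Sparc and Mmp14 lie to the right of most relatives, and Igfbp7, Prelp and Sdc1 are the other genes above 1.4.

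Markers of other cell types differed on the same arrays, and in bulk RNA fewer cells of a type and less RNA per cell cannot be told apart. RMA values have no 0, so no marker can be called absent. Of 16 mesenchymal stromal markers, 15 had a positive difference, and their mean log2 level was 5.67 and 5.88 in the controls and 6.12 and 6.25 in the samples labelled deficient. At an unadjusted p under 0.05, 8 were higher and 0 lower. Over all probe sets, 6.64% were higher and 5.25% lower at this threshold, which is the background for the marker lists below too. Under cyclic loess 14 of the 16 stromal markers were positive, and their median difference fell from 0.45 to 0.28. Cxcl12, the chemokine that holds stem cells in the niche, read 6.16 and 6.56 against 8.18 and 7.46, a difference of 1.46 (SE 0.33), and the leptin receptor Lepr differed by 0.61. The collagen gene Col1a1 differed by 0.32 (SE 0.15) and Pdgfrb by -0.50 (SE 0.33), the 1 negative value of the list, which was -0.085 without control replicate 2 and -0.92 without control replicate 1. The 6 osteoblast lineage markers differed by 0.14 to 0.37, with 5 of 6 positive under cyclic loess, and 0 passed the unadjusted threshold.

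Fat cell, vessel and macrophage markers had a mean level that was highest on deficient replicate 1. The 7 adipocyte markers averaged 6.26 and 6.43 in the controls and 7.72 and 7.20 in the samples labelled deficient, with 6 of 7 differences positive and 3 higher at an unadjusted p under 0.05. Fabp4, a fatty acid carrier of fat cells and small vessels, differed by 3.29 (SE 0.32), Adipoq by 2.69 (SE 0.75), or 1.68 without deficient replicate 1, and Pparg by 0.94. Lpl (0.64), Plin1 (0.34) and Cidec (0.25) did not pass, and under cyclic loess they differed by 0.42, 0.19 and 0.055. Cebpa differed by -0.36, the 1 negative value of the list, and by 0.14 without deficient replicate 2. The 12 endothelial markers averaged 6.61 and 6.52 against 7.46 and 6.95, with 9 differences positive and 3 negative. At an unadjusted p under 0.05, 5 were higher and 1 lower. The 5 were the sinusoid receptor genes Stab2 (1.93) and Stab1 (1.09), Plvap (1.16), Kdr (0.82) and Egfl7 (0.81), and the lower one was Tek (-1.12). Pecam1 and Emcn were the other negative ones, at -0.50 and -0.17, both with overlapping groups. Leaving out deficient replicate 1 or 2 moved Pecam1 to 0.30 or -1.30 and Emcn to -0.68 or 0.34. Cdh5 (VE-cadherin) did not pass, with 8.27 and 6.23 in the deficient samples and a difference of 1.87 that was 0.85 without deficient replicate 1. The 18 macrophage markers averaged 5.97 and 6.07 against 7.39 and 6.77, with all 18 differences positive (17 under cyclic loess) and 9 higher, among them Vcam1 at 2.10 and C1qa at 1.67. Csf1r differed by 0.41, and by -0.34 without deficient replicate 1.

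Blood lineage markers went both ways. The 11 erythroid markers averaged 6.59 and 6.69 against 8.12 and 8.77, highest on deficient replicate 2, with 8 higher and 0 lower. Tfrc, Slc4a1 and Epb42 read 10.18, 10.004 and 7.22 on that array and 7.39, 6.89 and 5.19 on deficient replicate 1. Without deficient replicate 2, Tfrc and Epb42 differed by -0.16 and -0.079. Epor went the other way, with 9.67 on deficient replicate 1 and 8.58 on replicate 2. The genes with the largest differences of the list, Rhd (3.04) and Ermap (2.69), were close on the deficient arrays. Rhd read 10.67 and 10.68 there, and Ermap 10.30 and 10.06. Klf1, an erythroid transcription factor, differed by 1.77 and read 9.68 and 9.65 on the deficient arrays. All 7 megakaryocyte markers had a negative difference, with means of 8.45 and 8.55 against 7.77 and 7.05, and Pf4, a platelet chemokine, differed by -2.82. Of 13 stem and progenitor markers 12 were negative, with means of 8.53 and 8.30 against 6.80 and 6.93, and 9 were lower at an unadjusted p under 0.05. Mature blood lineage markers averaged 5.49 and 5.47 against 5.50 and 5.77, and Ptprc (CD45), the surface antigen of blood cells, read 7.55 and 7.08 against 5.50 and 6.89. The part of these shifts in the values of the matrix genes was not tested.

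**Figure D4:**
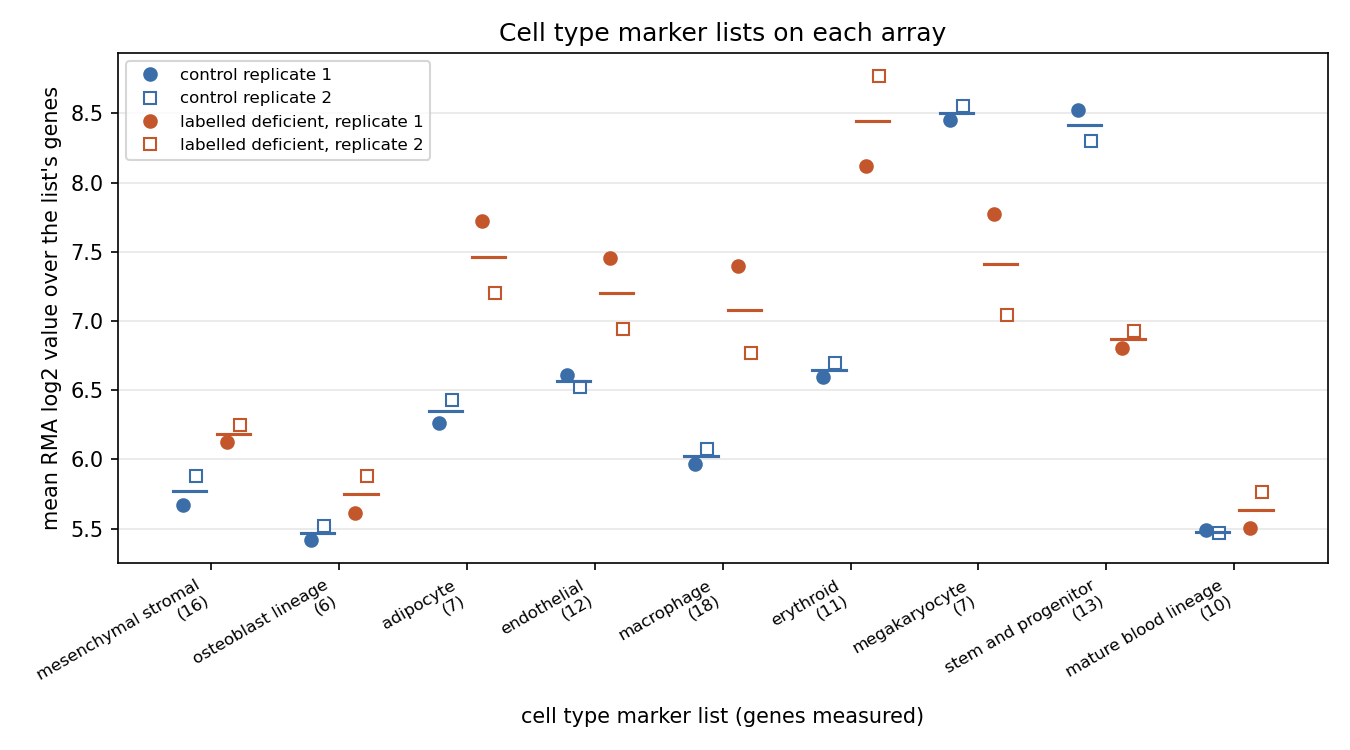
Mean RMA log2 value over the measured genes of each cell type marker list (y axis) on each array, with lists and their gene numbers on the x axis, filled circles for replicate 1, open squares for replicate 2 and bars for group means. Adipocyte, endothelial and macrophage lists are highest on deficient replicate 1, the erythroid list on deficient replicate 2, and stem and megakaryocyte lists are higher on the control arrays.

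Likeness of pattern was measured as the root mean square distance between genes over the 4 arrays, after each gene's own mean was subtracted. Sparc lay closest to Cldn13 (0.14 on the log2 scale), a claudin, then to Sfrp4 (0.22), Fabp4 (0.31), Ubd (0.35), a ubiquitin-like modifier, and the metallothionein gene Mt2 (0.35). Sfrp4 lay closest to Cldn13 (0.20), Sparc (0.22), the kappa variable segment Igkv4-91 (0.34), Mt2 (0.43) and Fabp4 (0.46). Probes of such kappa segments can detect near-identical segments, so that value is uncertain. With 4 arrays this distance mainly reads the size of the group difference.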

How the data were processed

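Each of the 4 arrays gave 1 log2 value per probe set. The deposited log2 values were made by the authors with RMA and Partek, per the submitters' processing notes, which give no versions. RMA subtracts background, equalises array distributions and combines the probes of a set. Their genome build is not given in the sources used. Of 35556 probe sets, 21789 had 1 gene symbol, 1621 several and 12146 none in the platform annotation. Symbols were updated by Entrez number through RefSeq (GRCm38.p6), which matched 21698. A gene with several such probe sets was read from the brightest. All 4 value columns were matched, and 0 were left over.

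Groups were compared with limma 3.58.1 (lmFit and eBayes, genotype as only term) in R 4.3.3, adjusted by Benjamini-Hochberg over all probe sets. The procedure was tested on simulated data. At the adjusted threshold it called 0% of probe sets given a log2 change of 1, 40.4% of those given 2 and 90.1% of those given 4. That 0 probe sets passed on the real arrays therefore does not show that genes were unchanged. Figures used matplotlib 3.10.9. The number of arrays limits precision, and p-values cover only the spread between these 4 arrays.

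The members, the lists and the naming rule were chosen with earlier results of these data known. The rule names the 10 members, the GABP subunit and gate checks, and fixed paralogs and marker genes. It also allows up to 3 genes with the largest absolute difference in a list, and the 5 nearest genes by pattern. Not every gene that the rule allows is named. Syn3, Kera, Epyc, Mmp12, Mmp28, Igf1, Igf2, Sdc3, Itga8, Itga10, Itgb8, Kdr, Stab1, Egfl7 and Tek are not covered by the rule. Nor are Lpl, Plin1, Cidec, Cebpa, Pecam1, Emcn, Tfrc, Epb42 and Epor. These names were picked with the values in view. Promoter matches used exact letters on both strands.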

Additional observations from a re-analysis of the deposited data

How the results depend on the processing

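The deposited values were rescaled, filtered, refitted and reduced by 1 array at a time. Among the 10 genes, Timp3 and Dcn changed sign. With 2 arrays a group, leaving 1 out cannot move a difference beyond the spread between replicates, so values staying within it then say nothing about stability. Timp3 (0.040) was -0.12 under cyclic loess, -0.041 with array medians subtracted, -0.082 without control replicate 1 and -0.059 without deficient replicate 1, and Dcn (0.16) was -0.060 under cyclic loess. The median difference over the 10 genes was 0.32 under cyclic loess and 1.55 in the brighter 50% of probe sets. There 6 of the genes remained, 5 positive and 5 with groups that did not overlap. Sfrp4 and Mmp14 passed this filter only through their values on the arrays labelled deficient, so the median of 1.55 is partly set by the filter. Over the 140 related genes the median was 0.052 under cyclic loess, and 48 of 65 were positive among brighter probe sets. Related genes higher at an unadjusted p under 0.05 numbered 18, against 6 under cyclic loess, 10 with array medians subtracted, 9 among brighter probe sets and 3 to 12 with 1 array left out; lower ones numbered 4, against 7 under cyclic loess and 1 to 5 with 1 array left out. Over all probe sets, higher ones numbered 2360, against 1191 under cyclic loess, 1537 with medians subtracted, 964 among brighter probe sets and 714 to 2198 with 1 array left out, the lowest without control replicate 1 and 1053 without control replicate 2. Scaling thus turned the split of 2360 higher and 1865 lower to 1191 and 2349 under cyclic loess and to 1537 and 2185 with medians subtracted. An adjusted p under 0.05 was reached by 0 probe sets in limma under every alternative run. The filter and the left-out array reduce what is tested, and for the other changes the cause was not tested. With the replicate number as a block, 1341 probe sets were higher and 1666 lower, and 9 related genes were higher and 4 lower. The numbers were not used as pairs, since deviations of same-numbered arrays from their group means correlated at -0.088 and nothing in the labels ties them.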
